A study of Apis mellifera with 12 samples.

Results

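The honey bee (Apis mellifera) miRNAs ame-miR-8, ame-miR-14, ame-miR-33, ame-miR-278 and ame-miR-375 are described here, 5 of the 168 bee miRNAs on the array used. They were chosen by name, because each is known from work on fat storage or insulin signalling, and every one of them has 1 reporter on the array. The RNA came from the abdominal carcass of workers, which is lined with fat body, the insect tissue that stores lipid and glycogen and secretes yolk protein. All bees were adult workers 15 days old, labelled foragers, and all had received dsRNA by injection as they emerged. In 1 group the dsRNA was directed against vitellogenin, the yolk precursor (dsRNA-Vg, 6 pools), and in the other against green fluorescent protein (dsRNA-GFP, 6 pools), which bees do not have, as the sham control. Each pool joined 400 ng of small RNA from each of 5 bees. The labels give 2 µL of dsRNA at 10 µg/µL per bee. No uninjected bees were among the samples, and vitellogenin mRNA was not analysed here. The defining miRNAs of muscle and gut were measurable in these carcass samples, and no miRNA was taken as a defining marker of fat body.

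A miRNA is a short RNA whose bases 2 to 8, the seed, pair with messenger RNAs and lower their output. In the fly, miR-8 acts in the fat body on an inhibitor of the insulin pathway and so promotes growth, and miR-14 limits stored triglyceride and acts in the insulin-producing cells of the brain. Fly miR-278 acts in the fat body, and its loss raises circulating sugar and insulin as in insulin resistance. In vertebrates miR-33 lies within the genes for the sterol regulatory element binding proteins and lowers cholesterol export and fatty acid breakdown. In mammals miR-375 is a miRNA of the pancreatic islet that restrains insulin secretion.

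The sequences are shown because they decide which other probes could take up the same RNA. They are the target sequences listed in the deposited scanner files, 5′ to 3′, with the seed in capitals.
ame-miR-8: uAAUACUGucagguaaagauguc
ame-miR-14: uCAGUCUUuuucucucuccua
ame-miR-33: gUGCAUUGuaguugcauug
ame-miR-278: uCGGUGGGacuuucguccguuu
ame-miR-375: uUUGUUCGuucggcucgaguua

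The 5 seeds were all different, and 0 of the other 167 array miRNAs had any of them at bases 2 to 8. Seed sharing was not rare on the array, where 21 of 168 miRNAs shared a seed with another one. The seed letters of miR-33 occurred again at its own bases 13 to 19 and also inside the sequence of miR-932. miR-14 was built mostly of pyrimidines, 18 of its 21 bases, of which 11 were U. The closest array sequence to any of the 5, without gaps, was miR-3049, which matched miR-278 at 13 positions with a longest common run of 5 bases. miR-8 was closest to miR-1, the muscle miRNA (12 positions, run of 7 bases), and miR-14 to miR-282 (11 positions, run of 8 bases). In the RefSeq gene table of assembly Amel_HAv3.1 each of the 5 has a gene of its own name. The gene of miR-375 overlapped the protein-coding gene LOC113218672, and the genes of miR-8, miR-14, miR-33 and miR-278 overlapped 0 listed genes. The nearest genes on both sides of miR-8 were long non-coding RNA genes.

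Each array carried 18 spots per miRNA and 628 empty spots, and the scanner intensity of the empty spots was taken as the background of that array. Their median ran from 247.9 to 491.3 over the dsRNA-GFP arrays and from 150.2 to 419.4 over the dsRNA-Vg arrays. The median miRNA probe was dimmer than the median empty spot in dsRNA-GFP pool 4 (297.8 against 318.6) and dsRNA-Vg pool 6 (351.3 against 356.4). There the empty spots do not mark the floor of the miRNA spots. For detection on an array, 50% or more of the 18 spots had to be brighter than the 95th percentile of the empty spots. By that rule 37 to 168 miRNAs were detected on the dsRNA-GFP arrays and 44 to 163 on the dsRNA-Vg arrays, and 127 miRNAs detected on at least 6 of the 12 arrays were tested. All 5 members were tested, but they passed with unequal margins.

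miR-8 was far above background everywhere. Its median spot was 48.4 to 166.0 times the median empty spot on the dsRNA-GFP arrays and 77.8 to 285.3 times on the dsRNA-Vg arrays, and all 18 spots were above the empty spots' 95th percentile on all 12 arrays. miR-278 also had all 18 spots above it on all 12 arrays, with a median spot of 1.32 to 2.56 times the empty spots after dsRNA-GFP and 1.51 to 3.72 times after dsRNA-Vg. miR-375 was detected on all 12 arrays, at 1.22 to 2.12 times after dsRNA-GFP and 1.12 to 1.89 times after dsRNA-Vg. All 18 of its spots passed the 95th percentile on 10 arrays, and the lowest count was 10 of 18, in dsRNA-Vg pool 6. These 3 miRNAs therefore met the detection rule in every pool, miR-375 by the smallest margin.

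Measured against the empty spots, miR-14 and miR-33 lay at the background. On the array of dsRNA-GFP pool 4, where the empty spots do not mark the floor, miR-14 ranked 41 of 168 by brightness. The median miR-14 spot was 1.07 to 1.23 times the empty spots after dsRNA-GFP and 0.91 to 1.15 times after dsRNA-Vg, with detection on 4 dsRNA-GFP and 3 dsRNA-Vg arrays. On the array of dsRNA-Vg pool 6, 0 of 18 miR-14 spots passed the 95th percentile of the empty spots, and miR-14 was the dimmest of the 168 miRNAs. The median miR-33 spot was 0.94 to 1.15 times the empty spots after dsRNA-GFP and 0.96 to 1.14 times after dsRNA-Vg, with detection on 4 and 2 arrays. Both were detected only on arrays where 120 or more of the 168 miRNAs passed, and on none where 37 to 68 passed. On the array of dsRNA-GFP pool 1 all 168 passed. The detection counts of miR-14 and miR-33 thus went with the number of miRNAs passing on an array. A miRNA so close to the background can be present at a low level or absent, and these arrays do not separate the possibilities.

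**Figure D1:**
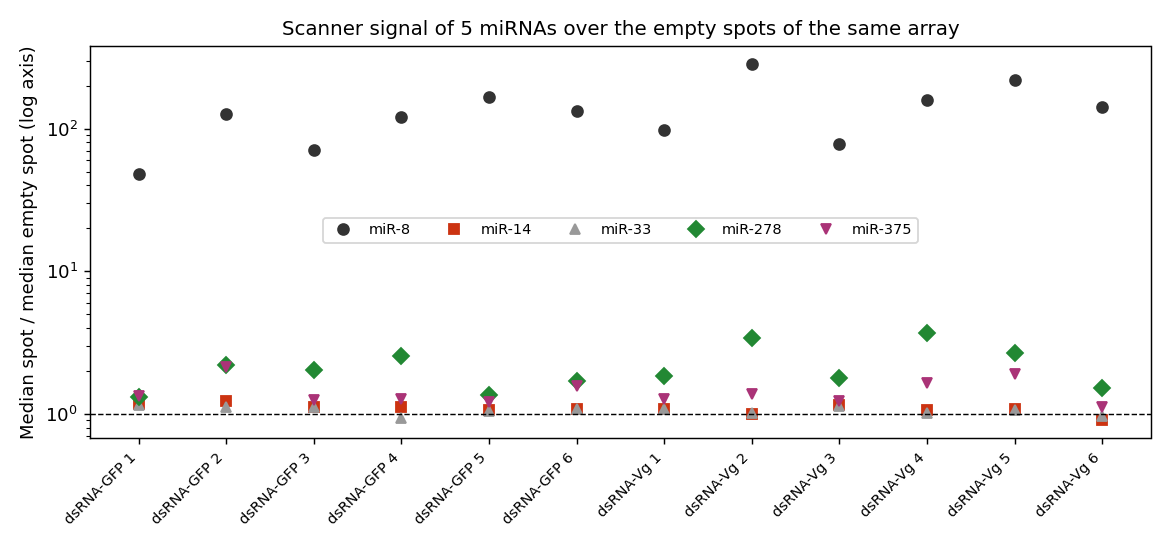
Scanner intensity of the median spot of each miRNA divided by the median empty spot of the same array (log axis), for the 6 dsRNA-GFP and 6 dsRNA-Vg arrays. The dashed line marks a ratio of 1, where a spot is as bright as an empty one: miR-8 lies at 48.4 or higher, while miR-14 and miR-33 lie between 0.91 and 1.23.

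The comparison of the groups asks whether the miRNAs tied to fat storage and insulin differ in the fat body when vitellogenin is targeted. By limma on normalized log2 scanner intensity, with p-values adjusted over the 127 tested miRNAs, 0 of the 5 members passed the threshold of 0.05, where 1.57% of all tested miRNAs passed (miR-3739 and miR-3776, both higher after dsRNA-Vg). At an unadjusted p under 0.05 the count was 1 of 5, miR-14, against 14.2% of all tested. The groups overlapped for all 5 members, while 2.36% of all tested miRNAs had groups that did not. The log2 fold change was positive for 1 member, miR-278, and negative for 4, with a median of -0.05, beside -0.01 over all 127 and 47.2% with a positive value. In the deposited value table, tested the same way over the same miRNAs, 0 of 5 passed as well, where 1.57% of all tested passed, and 2 of 5 had a positive value, against 41.7% of all. Counts of members near these shares say nothing particular about the members. In bulk RNA, fewer cells of a type and less RNA per cell cannot be told apart.

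**Figure D2:**
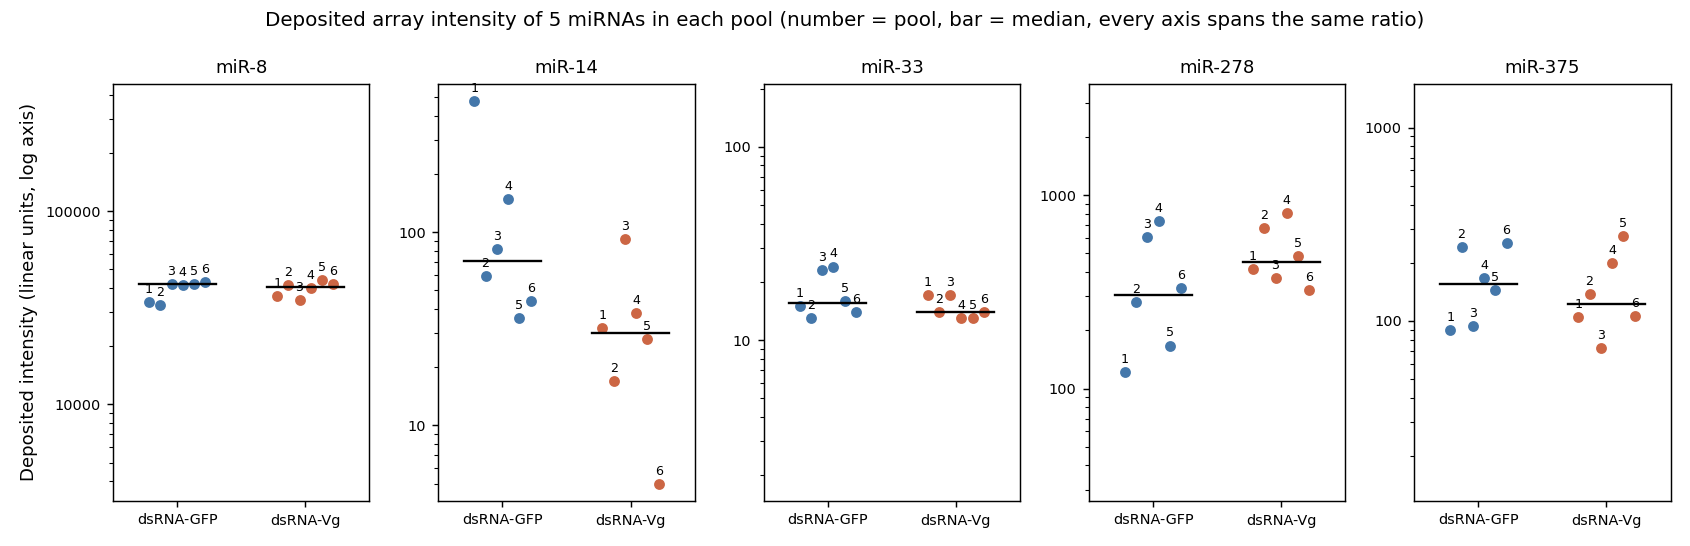
Deposited intensity of each miRNA (linear units on a log axis) in the 6 dsRNA-GFP and 6 dsRNA-Vg pools. Points are pools with their number, bars are group medians, and every panel spans the same ratio from bottom to top. miR-8 stays between 32766 and 44058, miR-14 runs from 5 to 477, and the groups overlap in every panel.

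miR-8, which acts on insulin signalling in the fly fat body, varied least between pools in the deposited table. Its deposited intensity had a lowest value of 32766, a median of 41840 and a highest of 42736 over the dsRNA-GFP pools, and 34541, 40552 and 44058 over the dsRNA-Vg pools. The dsRNA-GFP pools 1 and 2 and the dsRNA-Vg pools 1 and 3 were the low ones, and the others lay close together in both groups. The means were 39176 ± 4613 and 39658 ± 3542 (SD, n = 6 each), a fold difference of 1.02 with a 95% interval of 0.82 to 1.26 (limma adjusted p = 0.968). The spread of the deposited miR-8 values between pools of a group, 0.16 on the log2 scale, was in the lowest 0.787% of the tested miRNAs, whose median was 0.44. On the scanner itself the median miR-8 spot varied more, from 17662 to 53967, which is 3.06-fold, against 1.34-fold in the deposited table.

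For miR-8 the quantile-normalized scanner values hold little beyond its rank. It was the brightest of the 168 miRNAs on 8 arrays and the next brightest on 4, namely dsRNA-GFP pools 1 and 3 and dsRNA-Vg pools 3 and 4. On the normalized log2 scale it read 14.76 to 14.83 on those 4 arrays and 15.20 to 15.29 on the other 8. Its log2 fold change was -0.01 (SE 0.14, limma adjusted p = 0.969), which compares 2 arrays of lower rank with 2. By cyclic loess the value was -0.19 (SE 0.05, 95% interval -0.31 to -0.07, limma adjusted p = 0.116). It was 0.38 by scaling to the median (SE 0.38, -0.44 to 1.21, limma adjusted p = 0.707) and 0.14 with no normalization between arrays (SE 0.29, -0.47 to 0.74, limma adjusted p = 0.727). How far cyclic loess holds the brightest probes in place was not tested. The sign of the miR-8 difference thus changed with the scaling, and over 14 alternatives the limma adjusted p ran from 0.116 to 1.

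miR-278, the other miRNA known from the fly fat body, had the highest positive value of the 5. Its deposited intensity ran from 122 through a median of 306.5 to 740 after dsRNA-GFP, and from 325 through 449 to 813 after dsRNA-Vg. All 6 dsRNA-Vg pools lay above the dsRNA-GFP median, but dsRNA-GFP pools 3 and 4, at 610 and 740, lay among the highest dsRNA-Vg pools. The low end was held by dsRNA-GFP pools 1 and 5, at 122 and 167. On the normalized log2 scale miR-278 was at 8.40 ± 0.71 after dsRNA-GFP and 8.81 ± 0.27 after dsRNA-Vg (SD, n = 6 each).

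For miR-278 the log2 fold change came to 0.41 (SE 0.29, 95% interval -0.22 to 1.04, limma adjusted p = 0.510), so that a fold between 0.858 and 2.06 is within the interval. In the deposited table it was 0.66 (SE 0.42, limma adjusted p = 0.440), and 0.39 there without dsRNA-GFP pool 1 (SE 0.37, limma adjusted p = 0.732). The size rests on single pools, since the log2 fold change was 0.23 without dsRNA-GFP pool 1. It was 0.57 without dsRNA-GFP pool 3 or 4. Its spread within groups, 0.54 on the normalized log2 scale, was larger than that of 93.7% of the tested miRNAs or equal to it, where the median of all was 0.10.

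miR-14, the miRNA that limits fat storage in the fly, had the lowest unadjusted p of the 5 and ranked 12th among the 127. Its normalized log2 intensity was 7.14 ± 0.25 after dsRNA-GFP and 6.83 ± 0.17 after dsRNA-Vg (SD, n = 6 each), and all 6 dsRNA-Vg pools lay below the dsRNA-GFP median. The log2 fold change was -0.31 (SE 0.12, 95% interval -0.56 to -0.05), which did not pass after adjustment (limma adjusted p = 0.218, and 0.137 to 0.562 over 12 alternatives). For this single miRNA a two-sided exact permutation test over the 12 pools gave p = 0.0195 on the normalized values, where 0.00216 is the smallest possible. The same exact test gave p = 0.0368 on the deposited log2 values and p = 0.0628 on the ratio of the median spot to the empty spots. miR-14 was taken up with its earlier result known, so these p-values are not separate evidence.

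In the deposited table the same miRNA appeared to differ far more. Its intensity had a lowest value of 36, a median of 70.5 and a highest of 477 after dsRNA-GFP, and 5, 30 and 92 after dsRNA-Vg. The fitted log2 difference there was -1.83 (SE 0.70, 95% interval -3.33 to -0.33, limma adjusted p = 0.233). The highest dsRNA-GFP value was pool 1 at 477, followed by pool 4 at 148, and the lowest dsRNA-Vg value was pool 6 at 5. On their arrays miR-14 met the detection rule in dsRNA-GFP pool 1, and failed it in dsRNA-GFP pool 4 (8 of 18 spots) and dsRNA-Vg pool 6. In dsRNA-GFP pool 4 and dsRNA-Vg pool 6, however, the median miRNA probe was itself dimmer than the median empty spot. The median miR-14 spot of dsRNA-GFP pool 4, 358, was brighter than the median miRNA probe there, 297.8. Its rank on that array, 41 of 168, was its highest of all pools.

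The spots of miR-14 on the array of dsRNA-GFP pool 1 were read beside its value of 477. Of 18 spots, 17 read between 495 and 644, beside a median of 491 for the empty spots, and 1 read 5619. That spot is 9.74 times the median of its own 18. It is the only one of 2016 sets of 18 spots (168 miRNAs on 12 arrays) in which a spot exceeded 5 times the median of its set, and 1.29% of the sets had a spot over 2 times. The mean miR-14 spot less the median empty spot was 354.1 with that spot and 73.3 without it. The same position read between 146 and 540 on the other 11 arrays. The brightest of its 8 neighbouring spots on the pool 1 array was a miR-184 spot at 2446. What made the spot bright was not tested.

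A milder case stood on the array of dsRNA-GFP pool 3, where 1 miR-14 spot read 502 and the other 17 read 253 to 296. A 5S RNA spot beside it read 49004. The brightest miR-14 spot of dsRNA-GFP pool 4 read 523 and lay beside a 5S RNA spot at 35803. On the array of dsRNA-Vg pool 4 a still brighter 5S RNA spot, at 54490, lay beside a miR-14 spot that was not raised. That miR-14 spot, at the same position as the 502 of dsRNA-GFP pool 3, read 266, and the next brightest there 260. The part of these 5S RNA spots in the values was not tested. On the array of dsRNA-Vg pool 6, which holds the lowest deposited value, all 18 miR-14 spots (279 to 344) were below the median empty spot at 356. The deposited 5 of that pool therefore comes from spots dimmer than the median empty spot, as was the median miRNA probe there, at 351.3. The distance of that 5 from 30 or 477 on a log scale has no measured size. With the outlying spots left out, which changed miR-14 in dsRNA-GFP pools 1 and 3, its normalized log2 fold change was -0.23 (SE 0.12, 95% interval -0.49 to 0.04, limma adjusted p = 0.364). With the median of the 18 spots in place of their mean it was -0.21 (SE 0.10, 95% interval -0.44 to 0.02, limma adjusted p = 0.314). Both intervals take in 0, unlike that of the mean of all spots. Without dsRNA-GFP pool 1 the deposited table gave -1.35 (SE 0.61, limma adjusted p = 0.384). The normalized log2 fold change was -0.28 without that pool. With a single pool left out it ran from -0.36, without dsRNA-GFP pool 5, to -0.22, without dsRNA-GFP pool 4.

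**Figure D3:**
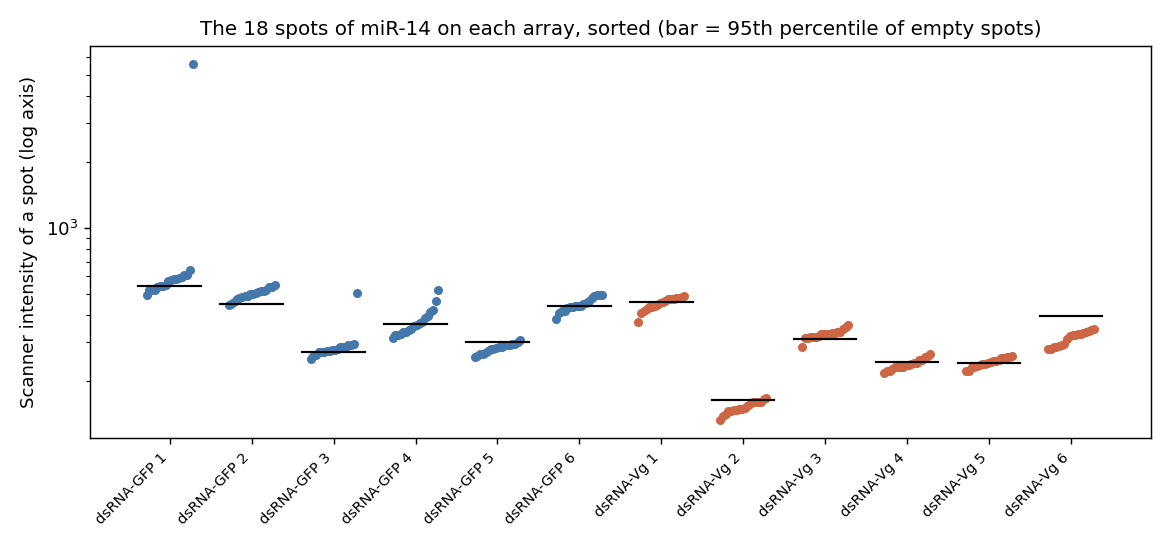
Scanner intensity (log axis) of the 18 miR-14 spots on each of the 12 arrays, sorted within an array, with the 95th percentile of the empty spots as a bar. A single spot at 5619 stands over the other 17 of dsRNA-GFP pool 1, a spot at 502 over those of dsRNA-GFP pool 3, and all spots of dsRNA-Vg pool 6 lie under the bar.

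miR-33, the sterol-linked miRNA of vertebrates, gave values near the background in both groups. Its deposited intensity ran from 13 through a median of 15.5 to 24 after dsRNA-GFP and from 13 through 14 to 17 after dsRNA-Vg. The 2 highest pools were dsRNA-GFP pools 3 and 4, at 23 and 24, and the other 10 lay between 13 and 17. On the normalized log2 scale miR-33 was at 6.91 ± 0.07 after dsRNA-GFP and 6.86 ± 0.05 after dsRNA-Vg (SD, n = 6 each), a log2 fold change of -0.05 (SE 0.04, 95% interval -0.13 to 0.03, limma adjusted p = 0.564). The narrow interval is that of background signal, which the offset compresses, and it sets no limit on a change of miR-33 itself.

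miR-375, known from insulin secretion in mammals, varied between pools, and no difference between the groups passed the test. Its deposited intensity ran from 90 through a median of 155.0 to 253 after dsRNA-GFP and from 72 through 122 to 275 after dsRNA-Vg. Pools 2 and 6 were high and pools 1 and 3 low among the dsRNA-GFP pools, and pools 4 and 5 were high and pool 3 low among the dsRNA-Vg pools. The lowest and the highest of the 12 values both came from dsRNA-Vg pools. The normalized log2 values of miR-375 were 7.74 ± 0.24 and 7.69 ± 0.30 (SD, n = 6 each), a log2 fold change of -0.05 (SE 0.15, 95% interval -0.37 to 0.27, limma adjusted p = 0.899). In the deposited table the fold difference was 0.888, with a 95% interval of 0.525 to 1.504 (limma adjusted p = 0.929). On the log2 scale that difference for miR-375 was -0.17, and -0.32 without dsRNA-GFP pool 1 (SE 0.35, limma adjusted p = 0.764).

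**Figure D4:**
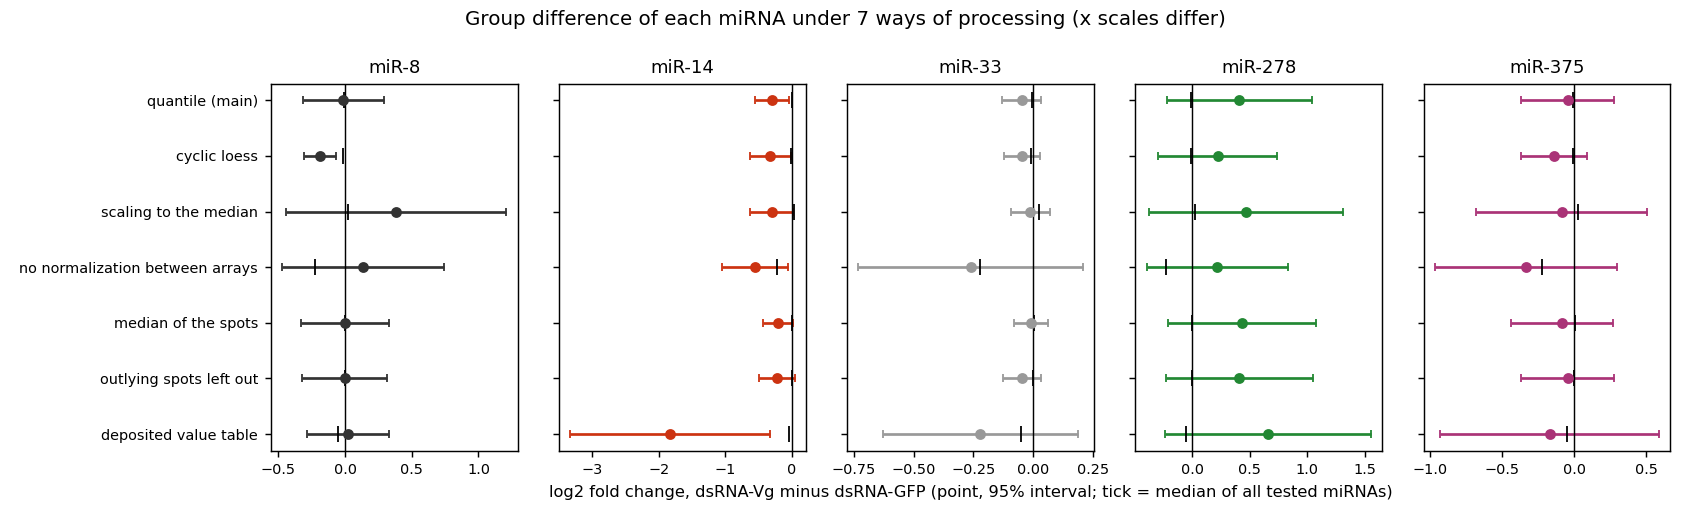
Log2 fold change (dsRNA-Vg minus dsRNA-GFP) of each miRNA with its 95% interval under 7 ways of processing, with the median of the 127 tested miRNAs as a tick. The horizontal scales differ between panels. For miR-14 every point is negative, from -0.21 to -1.83, and for miR-8 the sign changes with the scaling.

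The likeness of other miRNAs to each member was measured as Pearson's r over the 12 pools, after each group's mean was subtracted from the normalized log2 values. It is a description: the pools share arrays, labelling and normalization, and the best of 126 candidates is high by selection. Over all 127 tested miRNAs the median r with the best partner was 0.83. miR-375 was most like miR-71, at r = 0.93 (Spearman's rho 0.95), and then like miR-279, at r = 0.79 (rho 0.83). The miR-71 likeness remained with no normalization between arrays (r = 0.97), in the deposited table (r = 0.90) and without the 2 pools farthest from the miR-375 median (r = 0.95). The sequence of miR-71, uGAAAGACauggguaguga, has another seed and matches miR-375 at only 6 positions without gaps.

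Likeness was weaker or less stable for the other members. miR-278 was most like miR-3477 (r = 0.78, and 0.48 in the deposited table) and then miR-2 (r = 0.57 and 0.67). The normalized values of miR-2 had an SD of 0.04 after dsRNA-GFP and 0 after dsRNA-Vg. Its r of 0.57 therefore rests on small differences between dsRNA-GFP pools, and Spearman's rho was 0.30. miR-14 was most like miR-3739 (r = 0.64, and 0.19 in the deposited table) and then miR-3789 (r = 0.60 and 0.49). miR-8 was most like miR-279c (r = 0.88, and 0.53 in the deposited table) and miR-307 (r = 0.88 and 0.25). The normalized miR-8 values hold little beyond its rank, which limits both r of 0.88. With no normalization between arrays, where the brightness of an array is not removed, r was 0.93 and 0.96. miR-33 was most like miR-3765 (r = 0.86) and miR-3769 (r = 0.77), and both values were 1.00 without normalization, where the points share the background of their array. Between the members themselves r ran from -0.41 for miR-33 with miR-375 to 0.51 for miR-33 with miR-278.

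Other miRNAs of insulin and nutrient signalling in the fly or mosquito were read from a list of 6, of which 0 passed the threshold in the limma fit, where 1.57% of all tested miRNAs passed, with a median log2 fold change of 0.03 (-0.09 in the deposited table). At an unadjusted p under 0.05 the count was 0 of 6 too, against 14.2% of all tested. Counts of 0 in a list this short cannot be told apart from those shares. The list holds miR-277, tied in the fly to the breakdown of branched amino acids, and miR-305, which acts in intestinal stem cells under nutrient control in the fly. Their log2 fold changes were 0.02 (SE 0.20) and 0.11 (SE 0.34). Bantam, a growth miRNA of the fly, had 0.03 (SE 0.28), and miR-275, needed for egg development in mosquitoes, 0.14 (SE 0.12). miR-9a and miR-7 had -0.06 (SE 0.13) and -0.10 (SE 0.06). Of the 5 miRNAs tied to ecdysone, the insect steroid hormone whose signalling fly miR-8 and miR-14 also touch, 0 passed, against 1.57% of all tested, and 3 had an unadjusted p under 0.05, against 14.2%, with a median of 0.08 (-0.13 in the deposited table). The values extended from -0.46 for miR-281 (SE 0.20, limma adjusted p = 0.330) and -0.33 for let-7 (SE 0.20) to 0.33 for miR-34 (SE 0.15, limma adjusted p = 0.330), with miR-100 at 0.08 (SE 0.14) and miR-125 at 0.21 (SE 0.07, limma adjusted p = 0.218).

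Markers of other tissues in the carcass were read beside the members. The summed deposited intensity of the 2 muscle miRNAs ran from 1618 to 5224 after dsRNA-GFP and from 1835 to 3225 after dsRNA-Vg. They went opposite ways, with a log2 fold change of -0.44 for miR-1 (SE 0.32) and 0.44 for miR-133 (SE 0.16). That of the 3 gut miRNAs ran from 223 to 6294 and from 175 to 5412, and that of the 3 nervous system miRNAs (miR-7 and miR-9a among them) from 162 to 273 and from 124 to 242. The gut miRNAs had a median log2 fold change of -1.17, that of miR-1175 (SE 0.67, limma adjusted p = 0.420), with miR-750 at -1.89 (SE 0.99) and miR-281 at -0.46 (SE 0.20). The 3 epithelial miRNAs summed to between 913 and 1625 and between 1247 and 1477. None of these markers passed the threshold between the groups in this limma fit, at adjusted p of 0.155 or above, where 1.57% of all tested miRNAs passed. An unadjusted p under 0.05 was found for 3 of them (miR-133, miR-263b and miR-281), against 14.2% of all tested. Their part in the values of the 5 members was not tested.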

How the data were processed

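Per the labels' protocols, a service provider tailed and tagged the small RNA of 12 pools for Cy3, with 1 colour on an array. The deposited scanner files hold an intensity per spot, per the file headers. For the intensities of the deposited value table, the authors' normalization is not given in the sources used. Its values are linear, with medians of 24.0 to 41.5 per array, and its centring is unknown.

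Scanner intensities were corrected with normexp (limma 3.58.1, R 4.3.3, offset 50) fitted on all spots, log2-transformed and quantile normalized over the miRNA spots, with the mean of 18 spots taken for each probe. Changes of dim probes are shrunk by the offset. The groups were compared with limma (lmFit, eBayes, group only) with Benjamini-Hochberg adjustment over 127 probes. The fit was tested on simulated data. The depth of an array is not a count, so the number of arrays limits the precision. Of 66 pairs of arrays, 0 held identical values.

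The miRNAs named are the 5 members, fixed lists of related miRNAs and tissue markers, and for each member the 2 tested miRNAs most correlated with it. miRNAs with nearest sequences, the called ones and miR-184 were named after their values were seen. The members and lists were chosen with earlier results of these data known. Alternatives in normalization, background, filters, spot summary, value source, pool number as a block and each pool left out were run. The removal of outlying spots (over 5 median absolute deviations from the median of their probe) and the deposited table without dsRNA-GFP pool 1 were added after the data were seen.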

Additional observations from a re-analysis of the deposited data

Results flagged for a closer look

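The deposited intensity of miR-14 in dsRNA-GFP pool 1, 477, stood far above the other 5 dsRNA-GFP pools, of which the nearest read 148. On the array of that pool 1 of the 18 miR-14 spots read 5619 and the others 644 or less. The rule was Dixon's ratio, the gap to the nearest value over the range, above 0.625. It was the 1 of 20 groups of 6 values checked (5 miRNAs, 2 groups, normalized and deposited values) with such a pool. Chance gives about 1, if values are normal and groups independent, but the normalized and deposited values share their pools. Deposited values were checked on the linear scale and normalized ones on the log2 scale. The deposited values were not checked on the log2 scale.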

How the results depend on the processing

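For the 5 members 0 calls were made under any alternative. For miR-8 the log2 fold change of -0.01 was 0.384 with median scaling, 0.136 with arrays not normalized and 0.0216 in the deposited table, and for miR-33 it was 0.0516 with a subtracted surface of the empty spots against -0.05. The cause of these changes of sign was not tested. With a pool left out the log2 fold changes ran from -0.0842 to 0.0581 for miR-8, -0.36 to -0.22 for miR-14, -0.06 to -0.03 for miR-33, 0.23 to 0.57 for miR-278 and -0.138 to 0.0353 for miR-375. The sign turned for miR-8 when any of dsRNA-GFP pools 2, 4, 5 and 6 or dsRNA-Vg pools 3 and 4 was omitted, and for miR-375 without dsRNA-GFP pool 6 or dsRNA-Vg pool 3. Those of miR-14 ran from -1.83 to -0.15 over 12 other settings and those of miR-278 from 0.22 to 0.72 over 14. miR-14 and miR-33 have no value in the 2 settings that test only brighter miRNAs, since they were not tested there. Without normalization between arrays the median of all miRNAs was itself -0.22, so miR-14 at -0.56 lay 0.33 below it. The count of called miRNAs, 2, was 1 with median scaling, 1 with arrays not normalized, 1 among the miRNAs detected on all arrays, and 2 to 3 with a pool left out. With the pool number as a replicate block it was 3, with 0 members among them, and miR-14 had a limma adjusted p of 0.137. Same-numbered pools of the groups correlated from -0.33 to 0.70 in their deviations from the group means. Differently numbered pools were not compared in this way, so whether the numbers pair the pools was not tested. Signal over background limits the values of miR-14 and miR-33.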

Other observations

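The 18 spots of a miRNA lie in 3 columns of the array, 6 to a column. On the array of dsRNA-GFP pool 4, where miR-14 had its highest normalized log2 value of all pools, 7.57, its spots read 422.5 ± 62.3 in array column 2, 362.8 ± 33.2 in column 12 and 332.4 ± 15.5 in column 22 (SD over 6 spots each). On the array of dsRNA-Vg pool 6, where it had its lowest, the order was the opposite, with 286.0 ± 5.93, 320.2 ± 17.0 and 332.1 ± 6.39. Without the spots of column 2 the normalized values of miR-14 were 7.42 in dsRNA-GFP pool 4 and 6.68 in dsRNA-Vg pool 6, against 7.57 and 6.52 with them. Other pools moved too, dsRNA-GFP pool 1 from 7.27 to 7.02 and dsRNA-Vg pool 1 from 6.87 to 7.03. Without column 2, dsRNA-GFP pools 2, 3, 5 and 6 read 7.09, 7.11, 6.86 and 6.99. The dsRNA-Vg pools 2, 3, 4 and 5 then read 6.92, 6.91, 7.06 and 6.89. The group difference was not fitted without column 2. These columns were looked at after the values of miR-14 were seen.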
